A study of Mus musculus with 8 samples.

Results

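The genes described here encode 10 adhesion molecules by which muscle stem cells are known to hold to their niche: the cadherins Cdh15 and Cdh2, the integrin subunits Itga7 and Itgb1, the dystroglycan gene Dag1, the syndecans Sdc3 and Sdc4, and the surface glycoproteins Ncam1, Vcam1 and Cd34. They were chosen by name, and all 10 were found among the 17847 genes of the expression table and entered the test of 17801 genes. RNA was measured in 8 bulk libraries of sorted mouse muscle stem cells, 4 from Cox10-/- animals and 4 from wild-type animals, all C57Bl/6. In the Cox10-/- animals a floxed Cox10 allele was deleted by a tamoxifen-dependent Cre driven from Pax7, which acts in Pax7-expressing cells. Per the labels, animals of both genotypes received tamoxifen once, at 200 mg/kg by intraperitoneal injection, and their cells were purified 2 days later. Whether the wild-type animals carried the floxed allele or the Cre is not given in the sources used here, nor is the age beyond adult. Cells were sorted as positive for CD34 and negative for CD31, CD45, Sca1 and DAPI, a dye that stains dead cells. No label says that each library came from its own animal, so the p-values measure the spread between these libraries, which may be technical.

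Muscle stem cells, also called satellite cells, lie between the plasma membrane of the muscle fibre and the basal lamina that wraps it. Cadherins bind the cell to the fibre on the apical side, while the integrin made of the alpha 7 and beta 1 subunits and dystroglycan bind laminin on the basal side. Syndecans carry heparan sulfate chains that hold growth factors at the cell surface. Several of these molecules serve as antigens by which satellite cells are isolated.

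The promoters of the genes that results turn on are shown first, because 2 of the 4 transcripts that fell, Cdh15 and Dag1, and 1 that did not pass the test, Itgb1, have an entry in the promoter table used. RefSeq windows on GRCm38.p6, from 250 bases before to 50 bases after a transcript start, matched 6 of the 10 genes. Capitals mark CANNTG, the E-box, the letters bound by myogenic basic helix-loop-helix factors, which read the same on both strands.
Cdh15, chr8:122848124-122848423, plus strand: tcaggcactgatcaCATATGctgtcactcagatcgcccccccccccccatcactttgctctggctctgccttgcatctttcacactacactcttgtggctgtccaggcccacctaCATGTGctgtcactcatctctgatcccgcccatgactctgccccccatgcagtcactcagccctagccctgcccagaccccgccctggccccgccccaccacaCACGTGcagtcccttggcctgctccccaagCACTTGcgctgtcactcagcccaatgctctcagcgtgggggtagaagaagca
Dag1, chr9:108263909-108264208, minus strand: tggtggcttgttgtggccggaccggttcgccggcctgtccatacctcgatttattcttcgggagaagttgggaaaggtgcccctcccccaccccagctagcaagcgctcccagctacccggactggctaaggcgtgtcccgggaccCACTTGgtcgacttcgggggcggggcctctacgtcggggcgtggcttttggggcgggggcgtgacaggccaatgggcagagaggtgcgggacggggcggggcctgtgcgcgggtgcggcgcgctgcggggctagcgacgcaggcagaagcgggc
Itgb1, chr8:128685404-128685703, plus strand: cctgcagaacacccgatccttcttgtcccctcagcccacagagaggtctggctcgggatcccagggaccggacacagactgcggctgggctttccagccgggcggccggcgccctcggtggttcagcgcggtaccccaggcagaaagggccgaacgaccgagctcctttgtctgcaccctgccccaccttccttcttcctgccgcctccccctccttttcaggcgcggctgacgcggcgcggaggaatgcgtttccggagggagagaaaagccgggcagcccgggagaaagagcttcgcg
The Cdh15 window held 4 E-boxes and the Dag1 window 1, while the windows of Itgb1, Sdc3, Sdc4 and Cd34 held 0. Of 32851 RefSeq windows of 300 bases, 72.3% held at least 1 E-box and 6.49% held 4 or more. The narrower form CAGCTG, which is itself a CANNTG, was in none of the 6 windows and in 16.3% of all windows. TGGGAA, the letters read by the Notch effector Rbpj, searched on both strands, occurred once, in the Dag1 window, and in 25.6% of all windows. A second RefSeq start of Dag1, 143 bases from its gene start in GENCODE M21, has a window with 1 E-box and 0 TGGGAA. The start used for the Cdh15 window lies 408 bases downstream of the gene start in GENCODE M21, and that used for Sdc4 lies 699 bases from its gene start. These matches are letters in a window and do not show a bound site.

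Depth ranged from 1693349 to 4348650 reads in genes in Cox10-/- libraries and from 2148645 to 4650051 in wild-type libraries. The libraries resembled each other in pairs: within each genotype the reads of replicate 1 were nearest to those of replicate 2, and those of replicate 3 to those of replicate 4 (chi-square per degree of freedom 2.62 to 3.02 in those pairs, against 4.73 to 7.67 in the other pairs of Cox10-/-; 2.83 against 4.82 to 7.26 in wild-type). They are called the first pair (replicates 1 and 2) and the second pair (replicates 3 and 4) here. The labels do not say what a pair shares, so differences within each pair are given for each of the 10 genes. Setting a Cox10-/- pair against the same-numbered wild-type pair assumes that these match, which no label states. Cox10 stood at 3.51, 3.69, 3.49 and 2.05 log2 CPM in Cox10-/- libraries, against 3.98, 3.42, 4.12 and 3.69 in wild-type libraries, and did not pass the test (limma adjusted p = 0.246). Its difference was -0.10 in the first pair and -1.135 in the second, and the low value of Cox10-/- replicate 4 rests on 7 reads. Which exon is floxed is not stated, and exons that remain after deletion can still contribute reads. How far the allele was deleted in these cells was not tested. Transcripts that define muscle stem cells were present in every library: Pax7 averaged 7.33 ± 0.18 log2 CPM in Cox10-/- and 8.62 ± 0.15 in wild-type (SD, n = 4 each); it fell by 1.29 ± 0.11 (SE; limma adjusted p = 1.9e-05).

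Of the 10 adhesion transcripts, Cdh15, Itga7, Dag1 and Ncam1 fell in Cox10-/- cells and the other 6 did not pass the test. None rose, and at an unadjusted p under 0.05 in limma 5 were lower, with Cd34 the fifth, and 0 were higher (16.9% and 14.1% of all genes were lower and higher at that p). The background at an adjusted p was 8.51% of the 17801 genes called lower (limma with Benjamini-Hochberg adjustment over all genes, threshold 0.05), or 11.4% of the 4405 genes with a mean of at least 6 log2 CPM, the range in which all 10 members lie. The 10 differences (log2, Cox10-/- minus wild-type) ran from -2.43 to -0.02 with a median of -0.29, against a median of -0.06 over all genes tested. No overlap between the genotypes was seen for the 4 transcripts that fell, and 11.8% of all genes were lower without overlap. A decrease in bulk RNA cannot tell fewer cells of a type from less RNA per cell.

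**Figure D1:**
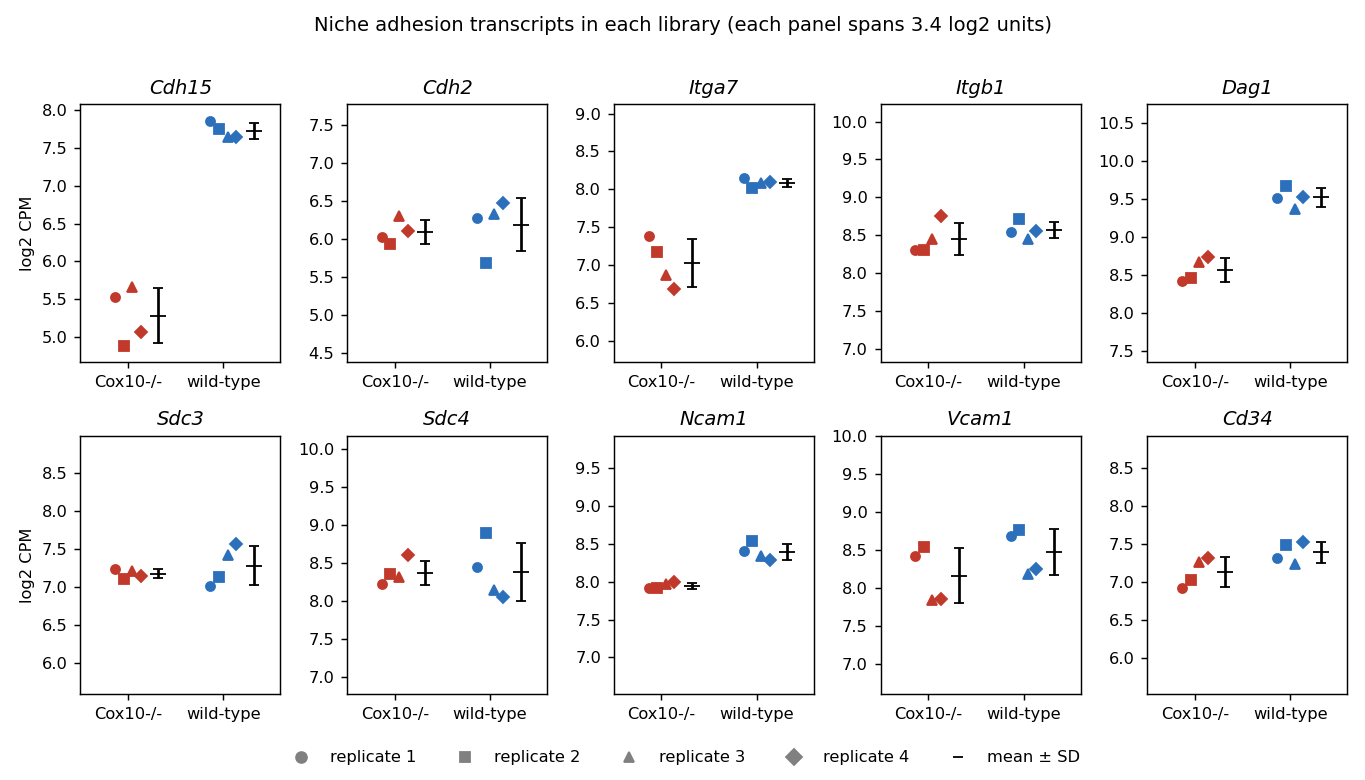
Levels of the 10 adhesion transcripts (log2 CPM) in each Cox10-/- and wild-type library, with the mean and SD of 4 libraries per genotype; marker shapes give the replicate number. Cdh15 lies between 4.89 and 5.66 in Cox10-/- and between 7.64 and 7.85 in wild-type, while Sdc4 overlaps.

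Cdh15 encodes M-cadherin, the cadherin of satellite cells and their fibres. It stood at 5.53, 4.89, 5.66 and 5.07 log2 CPM in Cox10-/- libraries, against 7.85, 7.75, 7.64 and 7.64 in wild-type libraries. Every Cox10-/- library lay at least 1.98 log2 units below every wild-type library. Cdh15 fell by 2.43 ± 0.16 (log2, SE; limma adjusted p = 2.7e-06) to 18.5% of the wild-type level (95% interval 14.6% to 23.4%). Of 17801 differences, ranked from the most negative, this was number 34. The exact two-sided permutation test gave p = 0.0286, the smallest that 70 assignments of 4 and 4 libraries allow. The difference was -2.59 in the first pair and -2.27 in the second.

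Cdh2, which encodes N-cadherin, the other cadherin of the niche, stood at 6.03, 5.93, 6.30 and 6.11 log2 CPM in Cox10-/- libraries, against 6.28, 5.68, 6.33 and 6.47 in wild-type libraries. The genotypes overlapped, with wild-type replicate 2 the lowest of the 8 libraries. The difference of -0.10 ± 0.16 (limma adjusted p = 0.723) had a 95% interval of -0.45 to 0.25, and was 0.00 in the first pair and -0.20 in the second. Within a library, log2 CPM of Cdh15 minus that of Cdh2 was -0.50, -1.04, -0.64 and -1.04 in Cox10-/-, against 1.57, 2.07, 1.31 and 1.17 in wild-type. Cdh15 had more reads than Cdh2 in all 4 wild-type libraries and fewer in all 4 Cox10-/- libraries, a contrast that no scaling between libraries can alter. Counts per kilobase of the longest transcript put Cdh15 at 12.3 ± 3.07 CPM per kb and Cdh2 at 14.2 ± 1.57 in Cox10-/-, and at 65.0 ± 4.61 and 15.4 ± 3.34 in wild-type (SD, n = 4 each).

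Itga7 encodes the alpha 7 subunit, which pairs with beta 1 to form the main laminin-binding integrin of muscle. It stood at 7.39, 7.17, 6.87 and 6.69 log2 CPM in Cox10-/- libraries, against 8.15, 8.02, 8.08 and 8.10 in wild-type libraries. The Cox10-/- libraries were spread more widely than the wild-type libraries, with an SD of 0.31 against 0.05. Itga7 fell by 1.06 ± 0.13 (limma adjusted p = 2.6e-04) to 48.0% of wild-type (95% interval 39.4% to 58.7%). The difference was -0.81 in the first pair and -1.31 in the second.

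Itgb1, the beta 1 subunit shared by many integrins, stood at 8.31, 8.30, 8.45 and 8.75 log2 CPM in Cox10-/- libraries, against 8.55, 8.71, 8.45 and 8.56 in wild-type libraries. The groups overlapped, and both the lowest and the highest value came from Cox10-/-. The difference was -0.12 ± 0.11 (limma adjusted p = 0.508; 95% interval -0.35 to 0.12). Its direction differed between the pairs, at -0.33 in the first pair and 0.09 in the second. The within-library difference of Itga7 minus Itgb1 was -0.92, -1.13, -1.58 and -2.06 in Cox10-/-, against -0.40, -0.69, -0.37 and -0.46 in wild-type. These values did not overlap, with -0.92 in Cox10-/- and -0.69 in wild-type the nearest. Whether the transcripts of the 2 subunits changed unequally was not tested.

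**Figure D2:**
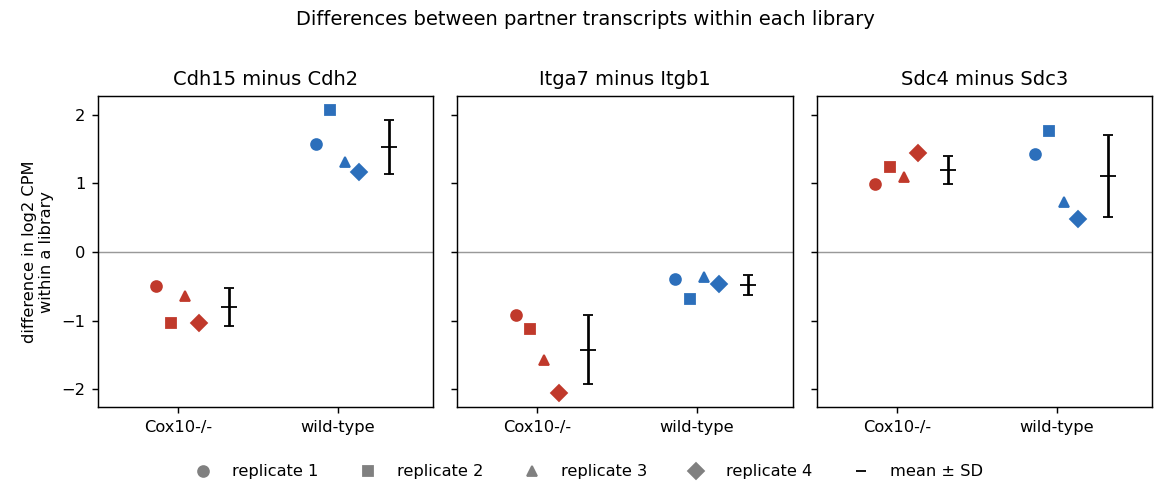
Difference in log2 CPM between partner transcripts within each library (Cdh15 minus Cdh2, Itga7 minus Itgb1, Sdc4 minus Sdc3), by genotype, with the mean and SD of 4 libraries. The first runs from -1.04 to -0.50 in Cox10-/- and from 1.17 to 2.07 in wild-type; the third overlaps.

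Dag1 encodes dystroglycan, which is cleaved into an outer subunit that binds laminin and a membrane subunit that binds dystrophin. It stood at 8.42, 8.46, 8.67 and 8.74 log2 CPM in Cox10-/- libraries, against 9.52, 9.68, 9.37 and 9.53 in wild-type libraries. Its mean CPM was the highest of the 10 in each genotype, although single Cox10-/- libraries had as much or more Vcam1 or Itgb1. It had 724 to 3077 reads per library, and the genotypes lay 0.63 log2 units apart at their nearest. Dag1 fell by 0.95 ± 0.10 (limma adjusted p = 7.0e-05) to 51.7% of wild-type (95% interval 44.5% to 60.0%). The difference was -1.16 in the first pair and -0.75 in the second.

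Ncam1, a cell adhesion molecule of the immunoglobulin superfamily that is present on myogenic cells, stood at 7.91, 7.92, 7.97 and 7.99 log2 CPM in Cox10-/- libraries, against 8.41, 8.53, 8.34 and 8.29 in wild-type libraries. The Cox10-/- libraries lay within 0.08 log2 units of each other, and all below wild-type. It fell by 0.44 ± 0.08 (limma adjusted p = 0.003) to 73.5% of wild-type (95% interval 65.1% to 82.9%). The difference was -0.56 in the first pair and -0.34 in the second. The call was lost after centring each library on its median gene (-0.36, adjusted p = 0.0923) and with means of replicate pairs as 2 samples per genotype (adjusted p = 0.118, where 2.32% of genes were called lower).

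The syndecans did not pass the test. Sdc3, which in mice is known to take part in Notch and growth factor signalling of satellite cells, stood at 7.24, 7.11, 7.22 and 7.15 log2 CPM in Cox10-/- libraries, against 7.02, 7.13, 7.42 and 7.57 in wild-type libraries. The Cox10-/- values lay inside the wild-type range, and the difference was -0.10 ± 0.12 (limma adjusted p = 0.588; 95% interval -0.36 to 0.15). Sdc4, a marker of quiescent and activated satellite cells that binds fibronectin and growth factors, stood at 8.23, 8.35, 8.31 and 8.60 log2 CPM in Cox10-/- libraries, against 8.45, 8.90, 8.15 and 8.05 in wild-type libraries. The difference was -0.02 ± 0.16 (limma adjusted p = 0.962; 95% interval -0.36 to 0.33). It was -0.39 in the first pair and 0.36 in the second, and that of Sdc3 was 0.10 and -0.31; the difference between the pairs did not pass the test for either gene (limma interaction adjusted p = 0.131 for Sdc4 and 0.201 for Sdc3).

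Vcam1, an immunoglobulin superfamily ligand of the alpha 4 beta 1 integrin that is used to sort satellite cells, stood at 8.42, 8.54, 7.84 and 7.86 log2 CPM in Cox10-/- libraries, against 8.69, 8.77, 8.19 and 8.25 in wild-type libraries. In both genotypes both libraries of the first pair lay above both of the second, and within each pair both Cox10-/- libraries lay below both wild-type libraries. The second pair minus the first was -0.57 ± 0.07 (SE; limma adjusted p = 0.0019), where 3.57% of genes differed between the pairs in either direction. The difference between genotypes was -0.31 ± 0.18 (limma adjusted p = 0.266; 95% interval -0.70 to 0.08), at -0.25 in the first pair and -0.37 in the second. It ran from -0.44 to -0.20 when 1 library was left out, with -0.20 without Cox10-/- replicate 3, and was -0.11 without the 2 shallowest libraries. With a term for the pairs in the fit the same difference passed the test (adjusted p = 0.0074, where 11.4% of genes were called lower), and with means of the pairs it did not (adjusted p = 0.488).

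Cd34, a sialomucin of satellite, endothelial and stromal progenitor cells, encodes an antigen of the sort, so the gate bounds what can be seen of its level. It stood at 6.92, 7.02, 7.27 and 7.32 log2 CPM in Cox10-/- libraries, against 7.31, 7.49, 7.24 and 7.53 in wild-type libraries. The groups overlapped by 0.08 log2 units. The difference of -0.26 ± 0.11 had a 95% interval of -0.50 to -0.02 for this gene alone and did not pass over all genes (limma adjusted p = 0.136). It was -0.43 in the first pair and -0.09 in the second.

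**Figure D3:**
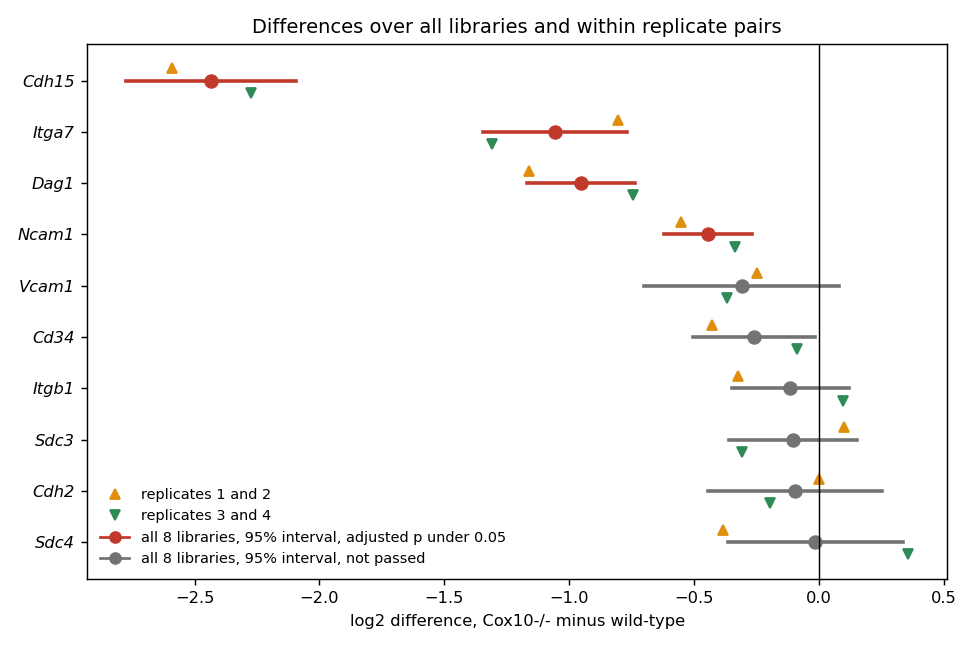
Difference in log2 CPM, Cox10-/- minus wild-type, for the 10 adhesion transcripts: circles and bars are the estimate and 95% interval over all 8 libraries, and triangles are the differences within replicates 1 and 2 and within replicates 3 and 4. The 4 transcripts that fell lie left of 0 in both pairs, which follows from their lack of overlap between genotypes. Vcam1 and Cd34 also lie left of 0 in both pairs, while Sdc4 lies at -0.39 and 0.36.

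Of the 10 differences, 6 had the same direction within both replicate pairs: those of Cdh15, Itga7, Dag1, Ncam1, Vcam1 and Cd34. The pairs are parts of the same 8 libraries. For the 4 transcripts that fell, the lack of overlap between genotypes fixed this direction, so it is no replication. The share of all genes with the same direction in both pairs was not computed. A genotype difference that itself differed between the pairs was called for 0 of the 10 members and 12 of 17801 genes (0.0674%; limma interaction), and 5 members, Itga7, Itgb1, Sdc3, Sdc4 and Dag1, had an unadjusted p under 0.05 there, as did 18.0% of all genes. Per kilobase of the longest transcript, Sdc4 stood highest of the members in both genotypes, at 135.5 ± 15.6 CPM per kb in Cox10-/- and 140.0 ± 39.1 in wild-type (SD, n = 4 each). Dag1 was the fourth in Cox10-/-, at 67.5 ± 7.33, and the second in wild-type, at 130.5 ± 11.5, where its range overlapped that of Sdc4. Itga7, Cd34 and Cdh15 lay within their spread of each other in wild-type, at 67.7 ± 2.52, 66.0 ± 6.35 and 65.0 ± 4.61, and apart in Cox10-/-, at 33.1 ± 7.14, 55.3 ± 7.33 and 12.3 ± 3.07. Cdh2 and Cdh15 were the lowest of the 10 in Cox10-/-, and Cdh2 and Sdc3 in wild-type.

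The 3 genes with profiles closest to that of Cdh15 were Serinc2, Dctd and Notch3, among 13849 genes with a mean of at least 2 log2 CPM. Their root mean square differences from Cdh15 over the 8 libraries, after centring each gene on its mean, were 0.17, 0.27 and 0.28 log2 units. Serinc2 is a member of the serine incorporator family, Dctd encodes a deaminase of pyrimidine nucleotides, and Notch3 is a Notch receptor. Notch3 averaged 6.87 ± 0.44 log2 CPM in Cox10-/- and 9.25 ± 0.13 in wild-type (SD, n = 4 each). Serinc2 and Dctd were low, at 2.20 ± 0.32 and 1.64 ± 0.15 in Cox10-/- and 4.85 ± 0.05 and 3.95 ± 0.22 in wild-type. Their differences of -2.65 and -2.31 shrank to -1.93 and -1.45 in the alternative where they were smallest. After centring, this distance depends largely on the size of the genotype difference.

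In 10 lists of other adhesion genes, 28 of 158 genes fell and 13 rose in Cox10-/- cells. These are 17.7% and 8.23% of the genes, beside 8.51% and 7.58% of all genes tested. Of the 4405 genes with a mean of at least 6 log2 CPM, 11.4% were called lower. Only part of the 158 genes lie in that range, and no background matched for level was made. The median difference of the 158 was -0.06 (log2), beside -0.06 for all genes. Among all genes, rises made up 47.1% of the calls, and 59.1% after median centring.

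Of 14 cadherin and catenin partners 2 fell and 1 rose, with a median of 0.01. T-cadherin, Cdh13, fell by 1.24 ± 0.13 (log2, SE) and the nectin Nectin1 by 0.86 ± 0.11, while Mllt4, which encodes the nectin-binding afadin, rose by 0.51 ± 0.11. Of 17 other integrin subunits 3 fell and 2 rose, with a median of 0.01 that was 0.31 in the first pair and -0.23 in the second. Over all genes the median was 0.05 in the first pair and -0.15 in the second. Among alpha subunits that pair with beta 1, Itga11 fell by 1.29 ± 0.25 (-0.77 in the first pair and -1.81 in the second) and Itga8 by 0.82 ± 0.11, and the collagen-binding Itga10 rose by 1.36 ± 0.22. Of 20 integrin adaptors 5 fell and 1 rose, with a median of -0.07. The talin gene Tln2, which links integrins to actin, fell by 0.97 ± 0.12, Actn4 fell by 0.43 ± 0.08 and Lims2 rose by 0.99 ± 0.16. After median centring 2 adaptors were called, and Actn4 was not among them (-0.35, adjusted p = 0.117).

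Of 21 other proteoglycan and heparan sulfate genes 4 fell and 1 rose, with a median of -0.07. Hs6st2, a sulfotransferase that modifies heparan sulfate chains such as those of syndecans, averaged 4.74 ± 0.15 log2 CPM in Cox10-/- and 7.12 ± 0.09 in wild-type (SD, n = 4 each). It fell by 2.38 ± 0.11 (SE; limma adjusted p = 3.5e-07). Hs2st1, another sulfotransferase of these chains, fell by 0.48 ± 0.09, and Extl3, which takes part in their synthesis, rose by 0.46 ± 0.10. The other syndecans did not pass: Sdc1 lay at -0.40 ± 0.14 (limma adjusted p = 0.0727) and Sdc2 at 0.31 ± 0.12 (adjusted p = 0.116). Both passed with a term for the pairs (adjusted p = 0.0339 and 0.035).

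Partners and modifiers of dystroglycan follow. Of 13 genes of the dystrophin complex, which ties dystroglycan to actin, 3 fell and 1 rose, with a median of -0.15. The sarcoglycan gene Sgca, at 2.66 ± 0.47 log2 CPM in Cox10-/- and 4.47 ± 0.15 in wild-type (SD, n = 4 each), fell by 1.82 ± 0.25. Dystrophin itself, Dmd, fell by 0.54 ± 0.10 and the sarcospan gene Sspn by 0.50 ± 0.11, while dystrobrevin, Dtna, rose by 1.19 ± 0.29 (1.69 in the first pair and 0.69 in the second). The call of Dmd was lost after median centring (adjusted p = 0.0801). Of 17 genes that build the laminin-binding sugars of dystroglycan 3 fell and 0 rose (6 lower and 0 higher at an unadjusted p under 0.05 in limma, beside 16.9% and 14.1% of all genes), 14 lay below 0, and the median was -0.42. That median was -0.14 in the first pair and -0.67 in the second, beside 0.05 and -0.15 over all genes. The list had 0 calls in the first pair alone, 8 in the second alone and 0 with means of the pairs. Of all 17801 genes, 2415, 2974 and 858 were called in the same fits. B3galnt2 fell by 0.76 ± 0.17 and Pomgnt1 by 0.59 ± 0.16. The call of Pomgnt1 was lost in 5 of the 8 fits that left out 1 library (adjusted p up to 0.0806).

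Of 16 other immunoglobulin adhesion genes 3 fell and 2 rose, with a median of -0.25: Cadm2 fell by 1.22 ± 0.26 and Jam2 by 0.54 ± 0.14, and the endothelial gene Esam rose by 1.62 ± 0.33. Esam was low, at 3.34 ± 0.42 log2 CPM in Cox10-/- and 1.71 ± 0.52 in wild-type (SD, n = 4 each). Its difference went down to 0.95 over the alternatives, and its call was lost in replicates 3 and 4 alone (limma adjusted p = 0.0527). Of 10 sialomucins, tetraspanins and the hyaluronan receptor 3 fell and 0 rose (1 higher and 3 lower at an unadjusted p under 0.05 in limma): Podxl2, a relative of Cd34, by 1.21 ± 0.21, the tetraspanin Cd82 by 0.75 ± 0.13 and the hyaluronan receptor Cd44 by 0.59 ± 0.10. Of 17 matrix ligands 1 fell and 2 rose. Osteopontin, Spp1, rose by 1.42 ± 0.15, the laminin chain gene Lamb2 rose by 0.33 ± 0.09 and tenascin C, Tnc, fell by 0.73 ± 0.16. Of 13 sheddases and their inhibitors 3 rose and 1 fell: the membrane protease Mmp14 rose by 0.56 ± 0.10, the inhibitor Timp3 by 0.47 ± 0.12 and Adam9 by 0.34 ± 0.08. The call of Jam2 and that of Lamb2 were each lost in 4 of the 8 fits that left out 1 library, with adjusted p-values up to 0.0649 and 0.0958, that of Timp3 in 2 and that of Adam9 in 1. The 30 genes that the naming rule took from the lists had the same direction in both pairs, and in 11 the 2 values differed by over 1.5 times. The rule took genes with a small p over these same libraries. Their shared direction was therefore largely fixed by that choice and is no replication. With means of the pairs 16 of the 30 lost their call.

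**Figure D4:**
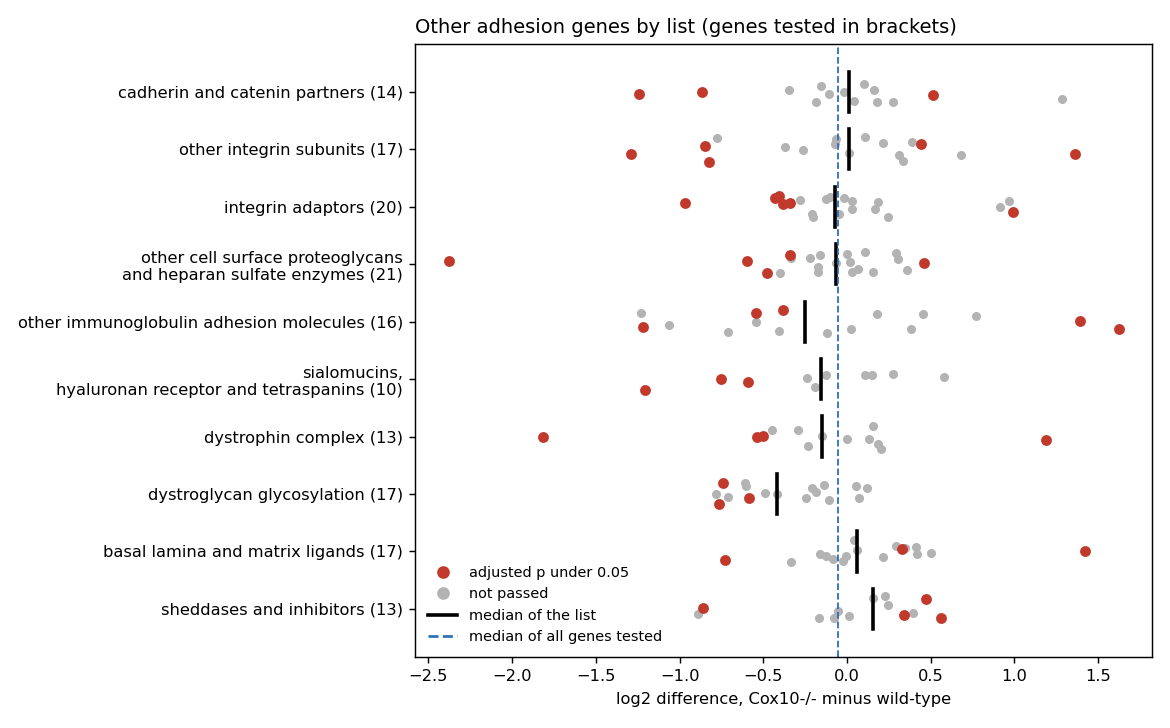
Log2 difference, Cox10-/- minus wild-type, of 158 other adhesion genes in 10 lists; each point is a gene, coloured points passed the test at an adjusted p under 0.05, black bars are list medians and the dashed line is the median of all genes tested (-0.06). The dystroglycan glycosylation list has its median at -0.42.

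Markers of several cell types were examined in the same libraries, and some lists held calls while others held none. Whether these reads came from such cells or from muscle stem cells was not tested. Beside the counts below, 7.58% of all genes were called higher and 8.51% lower (14.1% and 16.9% at an unadjusted p under 0.05 in limma). Of 12 endothelial markers 4 rose and 0 fell (6 higher and 0 lower at that unadjusted p). Their summed level was 383.8 to 448.5 CPM in Cox10-/- and 280.4 to 344.7 CPM in wild-type. Most of it came from Tek, which was not called (limma adjusted p = 0.171), and Cdh5, which rose by 0.475 ± 0.12. Pecam1, which encodes the CD31 of the sort, rose by 1.39 ± 0.37, but leaving out 1 library ended its call in 6 of 8 cases (adjusted p at most 0.0763). Of 7 fibro-adipogenic markers 2 rose and 1 fell, at 3119 to 6467 CPM in Cox10-/- and 2824 to 3955 CPM in wild-type. Ly6a, which encodes the Sca1 of the sort, rose by 1.84 ± 0.47. It was near the floor, at 3.08 log2 CPM in Cox10-/- and 1.245 in wild-type, with 1 library at 0. Its call was lost without Cox10-/- replicate 3 (limma adjusted p = 0.0692) and without the 2 shallowest libraries (0.0619). It was also lost with means of the pairs (0.0581) and in replicates 1 and 2 alone (0.0553). Of 6 mural markers 2 rose and 2 fell, at 921.7 to 1160 CPM in Cox10-/- and 592.1 to 820.8 CPM in wild-type. Of 6 muscle stem cell markers 4 fell, at 1004 to 1080 CPM in Cox10-/- and 1572 to 2012 CPM in wild-type. Of 7 myofibre markers 2 rose and 1 fell, at 124.2 to 309.4 CPM in Cox10-/- and 163.4 to 250.1 CPM in wild-type. Neither the 5 Schwann cell markers, at 108.6 to 259.1 CPM in Cox10-/- and 105.7 to 260.7 CPM in wild-type, nor the 6 dissociation markers, at 2662 to 4329 CPM in Cox10-/- and 2468 to 3921 CPM in wild-type, held a call (0 in each at an unadjusted p under 0.05 in limma). No call was made among the 4 of 8 leukocyte markers analysed (1 at an unadjusted p under 0.05), which summed to 27.7 to 47.4 CPM in Cox10-/- and 25.6 to 35.2 CPM in wild-type. Ptprc, which encodes the CD45 of the sort, was not analysed here. No marker analysed was at 0 in all 8 libraries. Their part in the differences of the adhesion genes was not tested.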

How the data were processed

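Total RNA of sorted muscle stem cells was made into stranded libraries with a low-input kit, per the labels' protocols. Per the submitters' processing notes, the build was mm9 and the tools were DESeq2, featureCounts, HISAT2 and Trim Galore. For their roles, their versions and the treatment of strand, the sources used here give nothing. The deposited values are log2 CPM, rounded to 2 decimals, with every CPM of 1 or less at 0 and no pseudocount, as tested on the file. The authors' mean column was not used, and 1054 rows name no gene and hold no values. Low values fell on whole multiples of 1 read (within 0.1 of a read, up to 20 reads, for 100% of them), which gave the depth.

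The deposited log2 values were fitted in R 4.3.3 with limma 3.58.1, using a variance trend, genotype alone in the model, and genes above 0 in at least 4 of 8 libraries. Adjustment was by Benjamini-Hochberg over all genes. Intervals of 95% use the moderated standard error and its total degrees of freedom. The procedure was tested on simulated data, with noise drawn independently for each library and no replicate pairs. That test therefore cannot show the error rate where libraries resemble each other in pairs. Alternatives were another filter or none, pseudocounts of 1 and 4, median centring, leaving out libraries, a replicate block, terms or means for replicate pairs, and limma voom on recovered reads of genes above 0 in all 8 libraries. Members, gene lists and tests were chosen with earlier results of these data known. Named genes were the 10 members, Cox10, Pax7, Myf5, up to 3 called genes per list with the smallest p, and the 3 profiles nearest to the member with the smallest p; Dtna, Sdc1, Sdc2, Pecam1 and Ly6a were named after their values were seen. The value of 1 gene that this rule names is not reported here. Transcript lengths and gene starts are from GENCODE M21 (GRCm38), not the authors' build. In that annotation genes on the other strand overlap the spans of Cdh2, Itga7, Sdc3, Vcam1, Cd34 and Ncam1, and genes on the same strand those of Cdh15 and Itga7; reads of overlapping genes may not be told apart.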

Additional observations from a re-analysis of the deposited data

Results flagged for a closer look

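In 86 groups of 4 libraries checked, 5 had a library far from the others (the gap to the nearest library, divided by the range of the group, was above Dixon's critical value); chance flags about 1 in 20 groups. None was a group of the 10 adhesion genes. The ratio was 0.878 for Cox10 in Cox10-/- libraries, where replicate 4 lay lowest at 2.05 log2 CPM. It was 0.941 for Adam9 in Cox10-/- libraries, where replicate 4 stood apart within a range of 7.72 to 7.89, and 0.885 for Lims2 in Cox10-/- libraries (4.76 to 5.28, replicate 4). In wild-type libraries it was 0.870 for Cadm2 (4.09 to 5.32, replicate 3) and 0.848 for Sgca (4.25 to 4.58, replicate 2).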

How the results depend on the processing

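Cdh15, Itga7 and Dag1 kept their call and direction in all 20 alternatives, with differences of -2.59 to -2.27, -1.31 to -0.81 and -1.16 to -0.75. Ncam1 kept its call in 18 and lost it with median centring (-0.36) and means of replicate pairs (-0.44). Cdh2, Itgb1, Sdc3 and Sdc4 passed in none; Vcam1 passed with a replicate block (-0.31, adjusted p = 0.02), a term for the pairs (-0.31) and replicates 3 and 4 alone (-0.37), and Cd34 with replicates 1 and 2 alone (-0.43). The direction turned for Itgb1 in replicates 3 and 4 alone (0.09), for Sdc3 in replicates 1 and 2 alone (0.10), and for Sdc4 with median centring (0.07), replicates 3 and 4 alone (0.36) and without the 2 shallowest libraries (0.08). Without 1 library, Sdc4 lay between -0.13 and 0.16. The causes were not tested.

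Over all genes, 2863 changed, 1840 to 2907 without 1 library (1840 without Cox10-/- replicate 3, 1902 without wild-type replicate 1), and 858 with means of replicate pairs. Of the 158 list genes 41 changed, 29 to 45 without 1 library, 64 with a term for the pairs and 15 with their means. By list the counts ran over the alternatives from 2 to 6 (3 in the report) for cadherin partners, 3 to 8 (5) for integrins, 2 to 7 (6) for adaptors, 1 to 9 (5) for proteoglycan genes, 2 to 9 (5) for immunoglobulin molecules, 2 to 6 (3) for sialomucins and tetraspanins, 1 to 5 (4) for the dystrophin complex, 0 to 8 (3) for dystroglycan glycosylation, 1 to 8 (3) for matrix ligands and 0 to 7 (4) for sheddases. The replicate numbers are not shown to pair libraries: correlations of deviations were 0.05, 0.14, 0.11 and 0.13 for same-numbered libraries, not all over 0.1, and a replicate block gave 3201 genes overall. It changed no call of a member but that of Vcam1. Depth is lowest in Cox10-/- replicate 4, where Cdh15 rests on 57 reads.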
